A study of Homo sapiens with 4 samples.

Results

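The 8 genes described here are frequent drivers of pancreatic ductal adenocarcinoma and its precursor lesions, taken by name from a table of 58174 named genes. They are the RAS family GTPase genes HRAS and NRAS, the cyclin-dependent kinase inhibitor genes CDKN2A and CDKN2B, the signal transducer SMAD4, the chromatin regulators ARID1A and KMT2D, and GNAS, which encodes the stimulatory G-protein subunit. The rule uses their names and no value of these libraries, although the members were chosen with earlier results of these data known. The transcriptomes of SW1990 and PANC-1, both established human pancreatic cancer cell lines, were sequenced unirradiated and after 10 Gy of X-rays. The lines were grown in different media, so that cell line and medium cannot be told apart. The time between radiation and RNA collection is not given in the sources used here. Each of the 4 groups is 1 library, so no difference between libraries has a replicate check. The unirradiated SW1990 library held 17939210 counted reads and the irradiated one 18388969, and the PANC-1 libraries held 23451153 and 20154644. Each level is given as a read count and as the deposited FPKM, the expression scaled to transcript length and library size.

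RAS proteins are membrane switches that pass growth factor signals to the MAPK cascade. CDKN2A encodes the INK4a inhibitor of CDK4 and CDK6 and, from an upstream start and another reading frame, the ARF protein. Its neighbour CDKN2B encodes the related INK4b inhibitor, and both lie on the short arm of chromosome 9 in a region that pancreatic cancers often lose. SMAD4 is the shared partner of the receptor-activated SMADs in TGF-β and BMP signalling. ARID1A is the DNA-binding subunit of the canonical SWI/SNF (BAF) chromatin remodeller, and KMT2D is a histone H3 lysine methyltransferase that acts at enhancers. Gs alpha, the main product of GNAS, activates adenylyl cyclase, and its activating mutations are typical of intraductal papillary mucinous neoplasms. Expression data of this kind give RNA levels and do not show which alleles a line carries.

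CDKN2A and CDKN2B had no reads at all in PANC-1 and few in SW1990, and they were the only members absent from a line, so the 250 bases before their annotated starts are shown. The bases come from RefSeq on GRCh38.p14 and are written 5′ to 3′ on the minus strand, the coding strand of both genes. The window before the ARF start is chr9:21995325-21995574, the window before the INK4a start is chr9:21974858-21975107, and that of CDKN2B is chr9:22009306-22009555. GC boxes, the letters GGGCGG or CCGCCC that read as one element on either strand, are in capitals.
CDKN2A, ARF start: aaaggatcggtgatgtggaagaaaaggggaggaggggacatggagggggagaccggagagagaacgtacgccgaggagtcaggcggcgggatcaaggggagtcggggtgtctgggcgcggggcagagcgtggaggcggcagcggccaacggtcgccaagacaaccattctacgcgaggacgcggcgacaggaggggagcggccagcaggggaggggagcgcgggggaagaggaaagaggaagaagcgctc
CDKN2A, INK4a start: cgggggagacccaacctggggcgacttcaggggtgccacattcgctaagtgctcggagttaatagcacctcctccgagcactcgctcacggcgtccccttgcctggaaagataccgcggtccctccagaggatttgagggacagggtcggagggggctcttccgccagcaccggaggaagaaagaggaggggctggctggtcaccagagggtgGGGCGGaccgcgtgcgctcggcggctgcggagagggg
CDKN2B: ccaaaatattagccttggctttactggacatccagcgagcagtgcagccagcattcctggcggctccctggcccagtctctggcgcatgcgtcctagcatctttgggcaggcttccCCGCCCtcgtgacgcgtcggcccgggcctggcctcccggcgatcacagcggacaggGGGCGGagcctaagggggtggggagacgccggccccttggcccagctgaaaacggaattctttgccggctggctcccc
The ARF window held 0 GC boxes and 24 CpG dinucleotides, the INK4a window 1 and 20, and the CDKN2B window 2 and 18. Their GC content was 66.8%, 66.8% and 66.4%. Of the 35116 windows in the table, 42.6% held a GC box, and the median window had a GC content of 58.0% and 11 CpG dinucleotides. All 3 windows were thus richer in CpG than the median. The windows of HRAS, ARID1A, SMAD4, KMT2D and NRAS, which were expressed in both lines, held 32, 30, 25, 23 and 20. Those of GNAS, also expressed in both, held from 9 to 33. DNA methylation was not measured.

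In the deposited table, which uses GRCh38, CDKN2A spans chr9:21967753-21995301 and CDKN2B chr9:22002903-22009363. The INK4a window above lies within the CDKN2A span, and the CDKN2B window partly within the span of its gene. The CDKN2A row held 6 reads in the unirradiated and 9 in the irradiated SW1990 library, and 0 in both PANC-1 libraries. These reads correspond to an FPKM of 0.352 and 0.486. The reads do not separate the INK4a from the ARF transcript, because the table has 1 row per gene. CDKN2B had 24 and 34 reads in SW1990, an FPKM of 0.455 and 0.443, and again 0 in both PANC-1 libraries. A count of 0 allows a level of up to 0.129 CPM (counts scaled to the library total, taken here as 3 counts) without radiation and 0.150 CPM with it. With 3 counts in place of 0 in the PANC-1 library and TMM scaling, CDKN2B was 8.93-fold higher in SW1990 than in PANC-1 without radiation and 11.7-fold higher after it. For CDKN2A the corresponding values were 2.23-fold and 3.1-fold. The SW1990 counts were taken as exact here, so these values leave out their counting error and are not lower bounds. Both genes stayed below an FPKM of 1 in all 4 libraries and therefore did not enter the counts of genes past a fold limit. Within SW1990, the log2 ratio of irradiated over unirradiated was 0.61 for CDKN2A with a 95% interval from -1.05 to 2.38, and 0.52 for CDKN2B with an interval from -0.27 to 1.34 (-0.04 by FPKM), so that no difference was detectable at this depth. These intervals are exact Clopper-Pearson intervals and, like all intervals and floors below, cover counting error only.

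Around the inhibitor genes PANC-1 had a run of genes without reads, with expressed genes on both sides. Between the end of MTAP and the start of DMRTA1, a stretch of 509 kb, the table lists 9 genes, and together they held 34 and 48 reads in SW1990 and 0 in each PANC-1 library. In SW1990 the 7 genes other than CDKN2A and CDKN2B gave only 4 and 5 of these reads, so that they add little to the difference. On the near side, MTAP, the methylthioadenosine phosphorylase gene that is often lost together with CDKN2A, had 375 reads without and 466 with radiation in PANC-1, against 1208 and 693 in SW1990. Its FPKM in the unirradiated libraries was 10.3 in PANC-1 and 19.3 in SW1990, and after radiation the FPKM was higher in both lines, also in SW1990, where the count was lower. DMRTA1, a DM-domain transcription factor gene on the far side, had 347 and 301 reads in PANC-1 and 0 in both SW1990 libraries. Farther out, the microRNA host gene MIR31HG held 369 and 243 reads in PANC-1 and 45 and 23 in SW1990, and the interferon gene IFNE held 122 and 67 against 17 and 18. IFNE, SNORD39 and MIR31 lie within the span of MIR31HG on the same strand, so their reads cannot be taken as separate from those of MIR31HG. SNORD39 counted 42 and 18 reads in PANC-1 and 4 and 6 in SW1990, and MIR31 counted 8 and 9 against 1 and 2. The unclassified transcript AL359922.3, within the span of MTAP, was the reverse, with 138 and 81 reads in SW1990 and 0 in PANC-1. AL359922.1, which runs from MTAP past CDKN2B, had 192 reads in PANC-1 before radiation, 0 after it, and 5 and 4 in SW1990. It shares 460 exonic bases (49.2% of its own) with MTAP, so its reads cannot be assigned to the part over the inhibitors. CDKN2B-AS1, the antisense RNA that overlaps 341 exonic bases of CDKN2A on the other strand, had 0 reads in all 4 libraries. DNA was not measured.

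The other 6 members were expressed in every library, with GNAS at the top and SMAD4 at the bottom. In bulk RNA, a lower level in each cell and fewer expressing cells cannot be told apart. On the FPKM scale GNAS was the highest of the 8 genes in all 4 libraries, at 212 without and 208 with radiation in SW1990 and at 124 and 169 in PANC-1. SMAD4 was the lowest of the 6, at 11.2 and 9.71 in SW1990 and at 10.1 and 10.2 in PANC-1. Among the genes that reached an FPKM of 1 in a given library, GNAS lay between the percentiles 97.1 and 98.7 and SMAD4 between 51.8 and 54.9. HRAS, ARID1A, KMT2D and NRAS lay between 75.0 and 93.4. Their order differed between libraries, with ARID1A next to GNAS in 3 libraries but below KMT2D and HRAS in irradiated SW1990 cells, where KMT2D had an FPKM of 41.5. With 1 library per group, the places of ARID1A at 41.1, KMT2D just below it and HRAS at 38.1 in unirradiated SW1990 cells cannot be told apart by any spread between replicates.

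After radiation, none of the 6 expressed members differed by 2-fold or by 1.5-fold in either line. In SW1990, 9.53% of the 15731 genes that reached an FPKM of 1 differed by more than 2-fold and 20.5% by more than 1.5-fold between the irradiated and the unirradiated library, after TMM scaling of the counts. In PANC-1 the shares were 9.12% and 21.6% of 15159 genes. With 6 members, a count of 0 is near these shares and is no result about the members. Of the 6 log2 fold changes, 2 were above and 4 below 0 in SW1990, with a median of -0.07, and 3 were above and 3 below 0 in PANC-1, with a median of 0.08. The medians over all genes compared were 0.02 and -0.02. The 2 comparisons use separate control libraries.

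HRAS lies at chr11:532242-537287 on the minus strand, with 11 annotated transcripts and 1854 exonic bases in GENCODE 29, and NRAS at chr1:114704469-114716894 on the minus strand, with 1 annotated transcript and 4449 exonic bases. HRAS counted 718 reads without and 756 with radiation in SW1990, and 942 and 843 in PANC-1. Its FPKM was 38.1, 39.0, 38.0 and 42.6 in the same order. The log2 fold change was 0.10 (-0.05 to 0.24) in SW1990 and -0.03 (-0.17 to 0.11) in PANC-1, so that in both lines counting error alone covers the difference. NRAS counted 2287 and 2126 reads in SW1990 and 3750 and 2988 in PANC-1, with an FPKM of 23.4, 21.4, 29.2 and 26.9. It was lower after radiation in both lines, at -0.08 (-0.17 to 0.00) and -0.20 (-0.27 to -0.13). Both PANC-1 libraries lay above both SW1990 libraries for NRAS, and not for HRAS on the FPKM scale.

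By counts, SMAD4 was the member whose difference after radiation had opposite signs in the lines by the widest margin. The gene lies at chr18:51028394-51085045 on the plus strand, with 17 annotated transcripts and 13123 exonic bases. It counted 1249 reads without and 897 with radiation in SW1990, and 1147 and 1213 in PANC-1. The log2 fold change was -0.46 (-0.58 to -0.33) in SW1990, a 1.37-fold lower level, and 0.21 (0.09 to 0.33) in PANC-1. On the FPKM scale the corresponding changes were smaller, at -0.20 and 0.01. The response in SW1990 minus that in PANC-1 was -0.67 (-0.84 to -0.50) from counts and -0.21 from FPKM. Over the 13228 genes compared in both lines this difference had a median of 0.05 and a middle 90% from -1.11 to 1.10, which holds the value of SMAD4. The readthrough gene AC091551.1 shares 967 exonic bases, 7.37% of those of SMAD4, on the same strand and held 21 and 9 reads in SW1990 and 25 and 6 in PANC-1. Of the other expressed genes within 500 kb, ELAC1 was at -0.12 in SW1990 and -0.36 in PANC-1, MEX3C at -0.12 and 0.12, and the malic enzyme gene ME2 at 0.18 and 0.57, all as log2 fold changes.

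By counts, ARID1A had the largest difference of the 6 members after radiation in PANC-1. The gene lies at chr1:26693236-26782104 on the plus strand in the table, with 17 annotated transcripts and 15928 exonic bases. It counted 5197 and 4576 reads in SW1990 and 10313 and 6878 in PANC-1, with an FPKM of 41.1, 34.9, 64.5 and 52.1. The lower value was the irradiated one in both lines, with a log2 fold change of -0.16 (-0.22 to -0.11) in SW1990 and -0.45 (-0.50 to -0.41) in PANC-1. KMT2D lies at chr12:49018975-49059774 on the minus strand, with 8 annotated transcripts and 20485 exonic bases, the most of the members. It counted 12277 and 11622 reads in SW1990 and 11313 and 11726 in PANC-1, the highest count of any member in every library. Its log2 fold change was -0.06 (-0.10 to -0.02) in SW1990, where the FPKM gave 0.05, and 0.18 (0.14 to 0.22) in PANC-1, where the FPKM gave 0.37. The direction in SW1990 thus depends on the measure. The response in SW1990 minus that in PANC-1 was 0.29 (0.22 to 0.36) for ARID1A and -0.24 (-0.29 to -0.19) for KMT2D. By FPKM it was 0.07 for ARID1A and -0.32 for KMT2D.

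GNAS lies at chr20:58839718-58911192 on the plus strand. It counted 6460 and 7148 reads in SW1990 and 6030 and 6307 in PANC-1. It was higher after radiation in both lines by counts, with a log2 fold change of 0.17 (0.12 to 0.22) and 0.20 (0.14 to 0.25). By FPKM the values were -0.03 in SW1990 and 0.45 in PANC-1, a difference of -0.48 between the lines that is the largest of the 6 members on that scale, against -0.03 (-0.10 to 0.04) by counts. GNAS has 58 annotated transcripts with several starts, and counts and FPKM gave different values for it in each line. The antisense gene GNAS-AS1, which overlaps 1127 of its exonic bases on the other strand, held 3 reads in unirradiated SW1990 cells and 0 in the other libraries.

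Since the lines are the only repeats of the treatment, the 4 libraries were also put in a single model, with line and treatment as terms, and tested by edgeR's quasi-likelihood method, which leaves 1 residual degree of freedom. For radiation, 0% of 18244 genes passed an adjusted p of 0.05. An unadjusted edgeR p under 0.05 was found for 870 genes (4.77%), a share near that limit itself. DESeq2 called 312 genes on the same design, 175 higher and 137 lower, with 1459 genes (8.0%) at an unadjusted p under 0.05. Limma on log2(FPKM + 1) or log2(FPKM + 0.1) called 0, with 1070 and 1005 genes (5.86% and 5.51%) at an unadjusted p under 0.05. No member was among the calls of any of these tools. In the edgeR fit the member with the smallest p was ARID1A, whose fitted log2 fold change was -0.31 (SE 0.15) with an edgeR adjusted p of 0.944, and it was lower in both lines. GNAS was at 0.18 (SE 0.135) with an edgeR adjusted p of 0.946, and SMAD4 at -0.12 (SE 0.212) with an edgeR adjusted p of 0.976.

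Between the lines, ARID1A and NRAS were lower in SW1990, and CDKN2B had reads in SW1990 only. In the unirradiated pair, 42% of 16626 genes differed by more than 2-fold and 60.4% by more than 1.5-fold, and of the 6 expressed members 0 passed 2-fold and 1, ARID1A, passed 1.5-fold. Scaling to total counts in place of TMM would raise each log2 value of SW1990 over PANC-1 in the unirradiated pair by 0.23. ARID1A was 1.78-fold lower in SW1990, with a log2 difference of -0.83 (-0.88 to -0.78) in the unirradiated and -0.54 in the irradiated pair. NRAS was lower in SW1990 as well, at -0.56 (-0.63 to -0.48) and -0.44. GNAS was higher in SW1990, at 0.26 (0.21 to 0.31) and 0.23, and its FPKM gave 0.78 in the unirradiated pair. KMT2D was at 0.28 (0.24 to 0.31) without radiation and at 0.04 with it. SMAD4 lay on either side of 0, at 0.28 (0.16 to 0.40) without and -0.39 with radiation, and HRAS was at -0.23 (-0.38 to -0.09) and -0.11. By FPKM the unirradiated pair gave 0.00 for HRAS, 0.14 for SMAD4, 0.48 for KMT2D, -0.32 for NRAS and -0.65 for ARID1A. In the irradiated pair the FPKM gave -0.07 for SMAD4 and 0.16 for KMT2D.

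In the fit of 4 libraries, 44.4% of 18244 genes differed between the lines at an edgeR adjusted p under 0.05. Of the 6 expressed members, 2 passed, namely ARID1A and NRAS. CDKN2A had too few reads to enter, and CDKN2B entered only through its reads in SW1990, so that no p is given for it. ARID1A was at -0.69 (SE 0.15) with an edgeR adjusted p of 0.0182, and lower in SW1990 in both pairs. Over the alternatives its adjusted p ran up to 0.0988 (limma on log2(FPKM + 0.1)). NRAS was at -0.50 (SE 0.142) with an edgeR adjusted p of 0.0391, and lost the call with total counts (0.0935), without the filter on low counts (0.072) and in both limma fits (0.187 and 0.295). GNAS, with an edgeR adjusted p of 0.201, passed only with DESeq2 (0.00207). The edgeR adjusted p was 0.437 for HRAS, 0.432 for KMT2D and 0.862 for SMAD4. In the same fit, 3 of the genes around CDKN2A with reads in all 4 libraries passed, with an edgeR adjusted p of 0.0316 for MTAP, which was higher in SW1990, and of 0.00197 for MIR31HG and 0.0136 for IFNE, both higher in PANC-1. Since IFNE lies within the span of MIR31HG, their calls are not separate.

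The label of both lines was compared with markers of pancreatic cell types. All 9 ductal epithelial markers had an FPKM of at least 1 in both SW1990 libraries, and in PANC-1 7 of 9 did before and 8 of 9 after radiation. Their summed FPKM was 2990 and 3790 in SW1990 and 1460 and 1690 in PANC-1, with keratin KRT8 the most abundant at 1350, 1890, 786 and 851. The adhesion genes EPCAM and CDH1 had an FPKM of 217 and 140 in unirradiated SW1990 cells but 2.28 and 0.673 in unirradiated PANC-1 cells. MUC1, a mucin gene, was the reverse, at 2.00 and 3.23 in SW1990 and at 6.61 and 13.7 in PANC-1, and KRT7 was at 5.79 and 6.35 in the unirradiated libraries. The lines thus differ in these epithelial markers along with the members, and their part in the member differences was not tested. None of the 4 acinar, 3 endocrine, 3 leukocyte and 3 endothelial markers reached an FPKM of 1 in any library. Of the 5 fibroblast markers COL1A1 had 1.40 and 2.85 in SW1990 and 8.44 and 11.0 in PANC-1, PDGFRB had 1.56 and 1.03 in SW1990 and 0 and 0.127 in PANC-1, and COL1A2 and DCN were at 0 throughout.

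The pathway neighbours of the members were followed in 6 lists that leave out the members themselves. Of 32 genes of RAS and MAPK signalling compared in SW1990, 1 was more than 2-fold higher and 1 lower, and of 31 in PANC-1 0 were higher and 1 lower. GRB2, the adaptor that links receptors to RAS exchange factors, was the lower one in SW1990, with 1755 and 722 reads and a log2 fold change of -1.26 (-1.39 to -1.13). In PANC-1 it counted 1736 and 957 reads, at -0.73. DUSP5, a nuclear phosphatase of ERK, was at 0.67 in SW1990 (488 and 768 reads) and at -1.02 in PANC-1 (3337 and 1504 reads). MRAS, named here after its values were seen, had 24 and 87 reads in SW1990, a log2 fold change of 1.88 at an FPKM of 0.501 and 1.49. The most expressed genes of the list were the receptor EPHA2, at 0.35 and -0.33, and the adaptor SHC1, at -0.23 and -0.05. Between the lines 4 of 32 genes of this list were higher in SW1990 and 14 in PANC-1 by the edgeR fit, in which 3949 and 4157 of all 18244 genes (44.4% together) were, SHC1 among the latter at -1.98 (SE 0.148) with an edgeR adjusted p of 0.000786.

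Among 21 genes around the INK4 inhibitors and RB, CDKN1A had the largest difference in SW1990. It encodes a CDK inhibitor of another family and counted 1229 and 4002 reads there, a log2 fold change of 1.72 (1.63 to 1.82), while in PANC-1 it counted 1282 and 782 reads, at -0.58 (-0.71 to -0.45). It was the only gene of the list past 2-fold in SW1990. In PANC-1 the only one was CCND2, with 248 and 53 reads, an FPKM of 1.36 and 0.408 and a log2 fold change of -2.10, which is also named after its values were seen. Of the targets of the INK4 proteins, CDK4 had an FPKM of 114 and 102 in SW1990 and 95.5 and 60.9 in PANC-1, and CDK6 had 15.4 and 19.4 in SW1990 and 20.3 and 22.4 in PANC-1. CDK4 was at -0.10 and -0.74 after radiation, and its partner gene CCND1 at 0.17 and 0.27. By the edgeR fit 5 genes of the list were higher in SW1990, CCND1 among them at 0.72 (SE 0.14) with an edgeR adjusted p of 0.0127, and 3 were higher in PANC-1.

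Of 23 genes of TGF-β and SMAD signalling, 0 passed 2-fold in SW1990 and 3 were higher in PANC-1, namely ID3, ID1 and SMAD6. The shares of all genes past 2-fold in either direction were 9.53% and 9.12%. ID1 and ID3 encode inhibitors of basic helix-loop-helix factors, and SMAD6 encodes an inhibitory SMAD. ID3 counted 374 and 1137 reads in PANC-1, a log2 fold change of 1.73 (1.56 to 1.91), and ID1 counted 1826 and 3397 reads, at 1.03 (0.94 to 1.11). SMAD6 counted 186 and 399 reads, at 1.23, and is named after its values were seen. In SW1990 ID3, ID1 and SMAD6 were at -0.32, -0.19 and -0.31. ID2 and SMAD7, of the same families and also named after their values were seen, did not pass 2-fold in PANC-1. ID2 was at 0.40 (-0.21 to 1.02) there with 43 and 52 reads, and SMAD7 at 0.06 (-0.13 to 0.25). Between the lines, 9 genes of this list were higher in PANC-1 and 4 in SW1990 by the edgeR fit.

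None of the genes compared in the chromatin lists passed 2-fold in either line. DPF3 of the SWI/SNF list was not compared, since it stayed below an FPKM of 1, with 19 and 43 reads in SW1990. Of 25 SWI/SNF genes compared, 20 were below 0 in SW1990 and 16 in PANC-1, with a median log2 fold change of -0.15 and -0.13. In SW1990 the count was 21 by total counts and by FPKM, with a median of -0.21 and -0.32. In PANC-1 the count was 13 with a median of -0.04 by total counts and 14 with a median of -0.05 by FPKM. SMARCC2, a core subunit, was at -0.40 and -0.29, and SS18, a canonical BAF subunit, at -0.01 and -0.46. The KMT2 (COMPASS) list of 20 genes also holds EP300, CREBBP and KDM1A, which are not subunits of these complexes. These genes were at -0.23, -0.17 and -0.16 in SW1990 and at -0.18, -0.47 and -0.19 in PANC-1. Of the 20 genes of the list, 18 were below 0 in SW1990 and 12 in PANC-1, with a median of -0.15 and -0.10. In SW1990 the count was 19 by total counts and 16 by FPKM, with a median of -0.21 by both. In PANC-1 the count was 10 with a median of -0.01 by total counts and 7 with a median of 0.04 by FPKM. Of all genes compared, 46.6% were below 0 in SW1990 and 51.7% in PANC-1. DPY30 and WDR82, subunits of the COMPASS complexes, were at -0.12 and -0.08 in SW1990 and at 0.03 and 0.00 in PANC-1. Between the lines, 8 SWI/SNF genes were higher in SW1990 and 5 in PANC-1. Of the KMT2 list 3 were higher in SW1990 and 4 in PANC-1, EP300 among the latter. SS18 was at 0.67 (SE 0.173, edgeR adjusted p of 0.03) and DPY30 at -1.02 (SE 0.168, edgeR adjusted p of 0.00759). Of the genes of Gs and cAMP signalling, 0 of 26 passed 2-fold in SW1990 and 1 of 25 in PANC-1. This was PDE4B, a cAMP phosphodiesterase gene with 96 and 211 reads, a log2 fold change of 1.27 and an FPKM of 0.971 and 2.42, named after its values were seen. Between the lines 9 of 30 genes of this list were higher in SW1990 and 10 in PANC-1 by the edgeR fit. These counts hold ADCY1, ADCY4 and PRKAR2B, which had reads in only 1 of the lines. They entered the fit only through that line, as CDKN2B did, so their calls are no test. GNB1 and GNB2, the G-protein beta subunits, were at 0.01 and 0.05 in SW1990 and at 0.33 and 0.26 in PANC-1. The lists' shares past 2-fold are read against 9.53% and 9.12% of all genes, and their calls between the lines, except for the Gs and cAMP list, against 44.4%.

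The genes around the members on their chromosomes did not share one direction between the lines. NRAS was lower in SW1990, while its neighbours SIKE1, BCAS2 and TRIM33, within 500 kb, were higher there, at log2 differences of 0.68, 0.73 and 0.94. Of 18 genes compared around ARID1A, 4 were more than 2-fold higher and 4 lower in SW1990, with a median of -0.46. Around HRAS 8 of 43 were higher and 17 lower, and around GNAS 0 of 10 passed 2-fold in either direction, with a median of -0.38, beside 42% of all genes past 2-fold. The 2 genes whose pattern over the 4 libraries was most like that of a member, by Euclidean distance of centred log2 CPM among 7772 genes, were HSF1 and POLR1A for HRAS, FAM3C and SF3B4 for NRAS, and CCNT2 and LINC02210 for SMAD4. They were CCZ1 and SNW1 for ARID1A, C12orf29 and MAGI1 for KMT2D, and NUP93 and FAN1 for GNAS. The distance of the nearest ran from 0.0152 for FAM3C to 0.0589 for CCZ1. CCNT2, for example, counted 589 and 419 reads in SW1990 and 545 and 569 in PANC-1, beside 1249, 897, 1147 and 1213 for SMAD4. With 4 libraries this likeness is a description only.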

How the data were processed

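RNA-seq libraries of SW1990 and PANC-1 cells were compared, 1 per line and treatment. According to the sample records, the submitters' processing notes name CASAVA 1.8, FastQC 0.11.2, Trimmomatic 0.36, HISAT2 2.0, StringTie 1.3.3b and DESeq2 1.12.4 on GRCh38. The authors deposited 1 table with raw read counts per gene, not normalized, and FPKM values, which are scaled to transcript length and library size. The tool that made the counts and the use of strand are not given in the sources used here. The library kit is described as an mRNA kit, and the labels as rRNA depletion. Of 59263 rows, 58174 carried an Ensembl identifier, 27 symbols turned into dates were restored, and 1089 loci naming no gene (0.453% to 0.635% of counts) entered neither library sizes nor tests.

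Counts were scaled by TMM (edgeR 4.0.16, R 4.3.3). For single pairs, genes reaching an FPKM of 1 in either library were compared with a fold limit of 2 or 1.5 and no test, with values of 0 set to 0.01 CPM and exact Clopper-Pearson 95% intervals that cover counting error only. All 4 libraries were fitted with glmQLFit and glmQLFTest on genes kept by filterByExpr, with line and treatment as terms and Benjamini-Hochberg adjustment over 18244 genes. The residual spread came from 1 degree of freedom and a common coefficient of variation of 0.219. DESeq2 1.42.0, limma 3.58.1, other scalings, filters and limits were tried as alternatives. The read test among them was the conditional binomial test, the form of the exact test at dispersion 0 without adjustment to equal library sizes. Coordinates of 7 of the 8 members were the same in GENCODE 29, and exon overlaps were taken from it. The members, lists and rules were chosen with earlier results of these data known. Named genes are the members, up to 4 list genes past 2-fold whose higher library of that line reached an FPKM of 5, the 2 of highest mean FPKM per list, neighbours within 500 kb, and the 2 genes nearest in pattern among those reaching an FPKM of 5 in all libraries. Where the text names only some of them, the rest are given as counts or are not reported here.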

Additional observations from a re-analysis of the deposited data

Results flagged for a closer look

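SMAD4 is listed because its libraries moved in opposite directions in the lines, with a log2 fold change of -0.46 in SW1990 and 0.21 in PANC-1 and a difference of -0.67 (95% counting interval -0.84 to -0.50). The difference was not tested against replicates, since the interaction leaves no residual degree of freedom, and the FPKM gave a difference of -0.21. HRAS also had opposite signs by counts, at 0.10 and -0.03, but its counting intervals allow either sign and it is not listed.

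KMT2D met the same condition, with -0.06 in SW1990 and 0.18 in PANC-1 and a difference of -0.24 (-0.29 to -0.19), also not tested. By FPKM it was higher after radiation in both lines, at 0.05 and 0.37, and the difference was -0.32.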

How the results depend on the processing

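The number of genes past 2-fold after radiation was 1499 in SW1990 and 1383 in PANC-1. It was 7924 and 7915 without a filter on level, 2254 and 2246 among genes with at least 10 counts in 1 library, 3231 and 3278 at 1.5-fold, and 670 and 723 when a read test at q below 0.001 was also asked for. Between the unirradiated lines it was 6980, and 15061 without the filter. These shifts follow from which genes enter and from the limit itself. Other scalings and the FPKM kept these counts within 1.5 times. The members past 1.5-fold stayed at 0 in both lines under every scaling and by FPKM, and between the lines went from 1 to 2 by FPKM, which adds GNAS. The radiation fit called 0 genes with edgeR and limma and 312 with DESeq2, and the cause was not tested.

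By FPKM the sign turned for KMT2D (0.05) and GNAS (-0.03) in SW1990 and for HRAS between the lines (0.00), and, where the counting interval includes 0, also for HRAS in PANC-1 (from -0.03 to 0.16, and 0.06 with total counts) and CDKN2B in SW1990 (from 0.52 to -0.04). The cause was not tested. The calls lost or gained between the lines are given in the report for ARID1A, NRAS and GNAS. The medians of the lists under other scalings were added after seeing the data. With total counts they turned in SW1990 from 0.02 to -0.03 for RAS and MAPK (-0.01 by FPKM), from 0.04 to -0.02 for INK4 and RB, from 0.01 to -0.05 for SMAD (-0.01 by FPKM) and from 0.03 to -0.03 for cAMP, and in PANC-1 from -0.07 to 0.02 for cAMP (0.05 by FPKM). The chromatin medians stayed below 0 in SW1990 under all 4 measures.

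Leaving out a library was not possible, since 1 per group leaves no pair or no residual degree of freedom. The fit of 4 libraries has line as a term, so that radiation is compared within lines, and the labels carry no replicate numbers for any other pairing. Depth limits what can be said of CDKN2A and CDKN2B, where the counts of 0 in PANC-1 allow up to 0.129 and 0.150 CPM.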
